A study of Mus musculus with 3 samples.

Results

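The genes described here carry the secretory and plasma cell programme of B lineage cells. They comprise 9 genes taken by symbol from the deposited gene tables, Mzb1, Jchain, Xbp1, Prdm1, Sdc1, Derl3, Edem1, Ell2 and Creld2, of 24437 genes in all. Each was listed at 1 locus in every table. They were measured in bulk RNA from 3 thymic leukaemias of diseased C57BL/6 mice of the model called Mb1-CreDPB. From knowledge of this model rather than its labels, the mice lack Spi-B (Spib) throughout, and Cre made from mb-1 (Cd79a) takes out Spi1 as B lineage cells form. Spi1 encodes PU.1, an ETS factor related to Spi-B. The thymuses were used whole after lysis of red cells, so other cells of the organ are included. The 3 libraries, leukaemia 1 (Thy_853), leukaemia 2 (Thy_854) and leukaemia 3 (Thy_857), form 1 group in which all carry the same alleles. No control samples were analysed here, and the labels give no age. The labels do not say in words that each thymus came from another mouse, so an SD over n = 3 is the spread between these libraries.

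A B cell that becomes a plasma cell turns from dividing to making antibody. The repressor Blimp-1, encoded by Prdm1, shuts off B cell identity genes, and the factor encoded by Xbp1 expands the endoplasmic reticulum (ER), in which antibody chains are folded, assembled and checked. Early B cells are not known for antibody secretion. In a bulk sample, fewer cells of a type and less RNA per cell cannot be told apart.

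The values are FPKM, the fragments of a gene scaled to its length and to the fragments of its library, so that levels of different genes can be set side by side. FPKM of at least 1 was reached by 9706 to 9992 genes per library. Fragment totals were not at hand, so depth is known only through the deposited 95% intervals, which extended 5.35% to 5.63% to either side of their midpoint for the median locus at this level. In 27.3% to 28.6% of such loci FPKM lay above the upper bound of its own interval. Spi1 stood at 11.6, 6.70 and 7.13 FPKM in leukaemias 1, 2 and 3, and Spib at 11.8, 14.6 and 9.60. Since exons outside a deletion also count, these levels do not check the deletion. The 8 pan-B markers summed to 3867, 3072 and 2624 FPKM in leukaemias 1, 2 and 3, and all 8 were at FPKM of at least 1 in every library. The 10 T cell markers summed to 151 FPKM in leukaemia 1 against 33.2 and 38.4 in leukaemias 2 and 3, the 6 NK cell markers to 75.9 against 19.1 and 21.8, and the 7 neutrophil markers to 236 and 203 in leukaemias 1 and 2 against 26.6 in leukaemia 3.

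The members spanned a wide range of levels. Mzb1 was the highest at 606 ± 98.6 FPKM (SD, n = 3, as for every ± here), 22.2 times the level of the next. Ell2 at 27.2 ± 7.64, Xbp1 at 25.6 ± 3.33, Creld2 at 24.7 ± 5.60 and Edem1 at 20.7 ± 1.49 formed a middle group. Its neighbours differed by less than the larger SD of the pair, although the FPKM of Creld2 was above that of Edem1 in every leukaemia. With interval midpoints in place of FPKM, Creld2 was below Edem1 in leukaemias 1 and 3. Jchain at 3.97 ± 3.27, Prdm1 at 3.58 ± 1.32 and Derl3 at 2.65 ± 0.786 lay below the middle group. Neighbours among these likewise differed by less than the larger SD of the pair, although Prdm1 was above Derl3 in every leukaemia. Sdc1 was the lowest at 0.314 ± 0.395. FPKM of at least 1 was reached in all 3 leukaemias by 7 of the 9 members, by Jchain in leukaemias 2 and 3, and by Sdc1 in none.

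**Figure D1:**
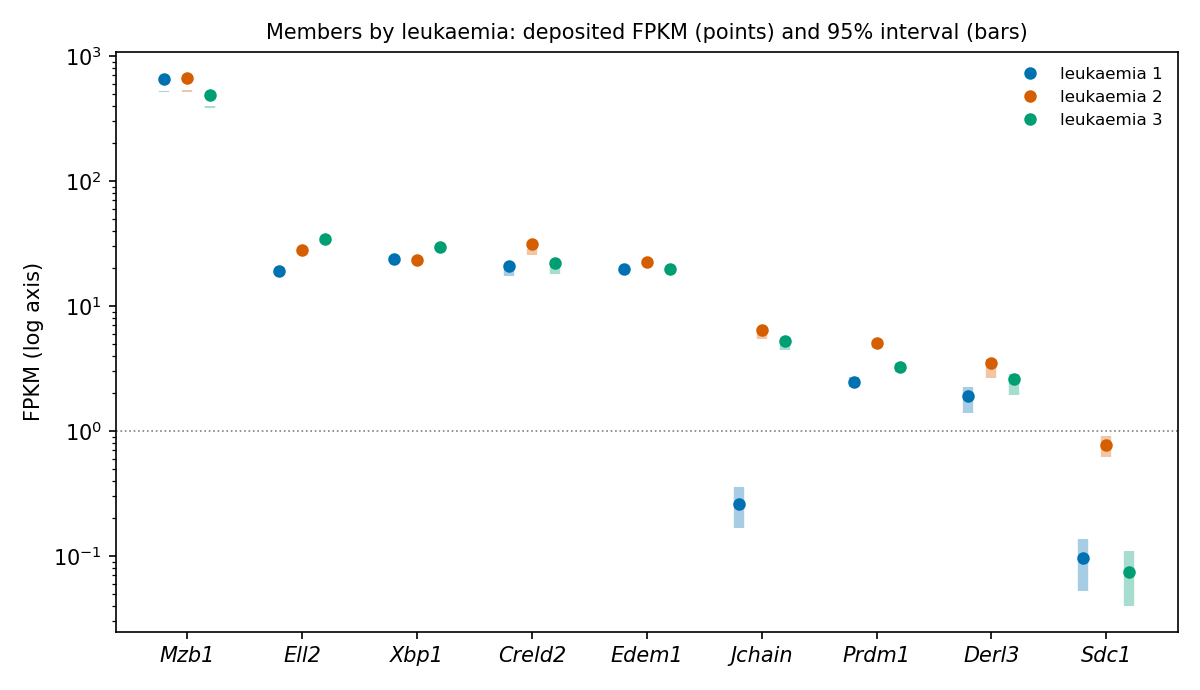
Points are the deposited FPKM of each member in each leukaemia on a log axis, bars the deposited 95% intervals, and the dotted line marks an FPKM of 1. Mzb1 stands above all others and its points lie above their own intervals, Jchain is low in leukaemia 1 alone, and Sdc1 stays below 1 in all 3 leukaemias.

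The leukaemias were compared in pairs, the comparison that 1 group allows. A gene was called in a pair when its log2(FPKM + 1) differed by 1 or more, its deposited intervals lay apart and its FPKM was 1 or more on at least 1 side. With 1 library per leukaemia these calls have no replicate check, and no p-value is given. The pairs share libraries and are not independent of each other. Jchain was the only member called, lower in leukaemia 1 than in leukaemia 2 and lower in leukaemia 1 than in leukaemia 3. For 1 against 2, 1 of 8 members that passed the level filter was therefore called lower in leukaemia 1, where 2.60% of 10295 tested genes were, and no member was called higher, where 5.56% of genes were. For 1 against 3 these were 1 of 8 beside 3.22% of 10265 genes, and 0 beside 6.75%. Between leukaemias 2 and 3 no member was called, beside 2.96% of 10047 genes higher in leukaemia 2 and 1.72% lower. Sdc1 did not pass the level filter in any pair.

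Below the calling threshold, most members were lowest in leukaemia 1 or highest in leukaemia 2. The highest level was found in leukaemia 2 for 7 of the 9 members and in leukaemia 3 for Xbp1 and Ell2. The median member was 0.55 higher in leukaemia 2 than in leukaemia 1 on the log2(FPKM + 1) scale, with 8 of 9 members higher in leukaemia 2, whereas the median of all tested genes was 0.02 lower in leukaemia 2. For leukaemia 2 minus 3 the median member difference was 0.32, with 7 of 9 members higher in leukaemia 2, beside -0.06 for all tested genes. For leukaemia 1 minus 3 the median member difference was -0.28, with 3 of 9 members higher in leukaemia 1. Rescaling FPKM to a common upper quartile or by the median ratio left the counts against leukaemia 2 at 8 and 7 of 9. After rescaling to a common upper quartile, 4 of 9 members were higher in leukaemia 1 than in leukaemia 3.

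**Figure D2:**
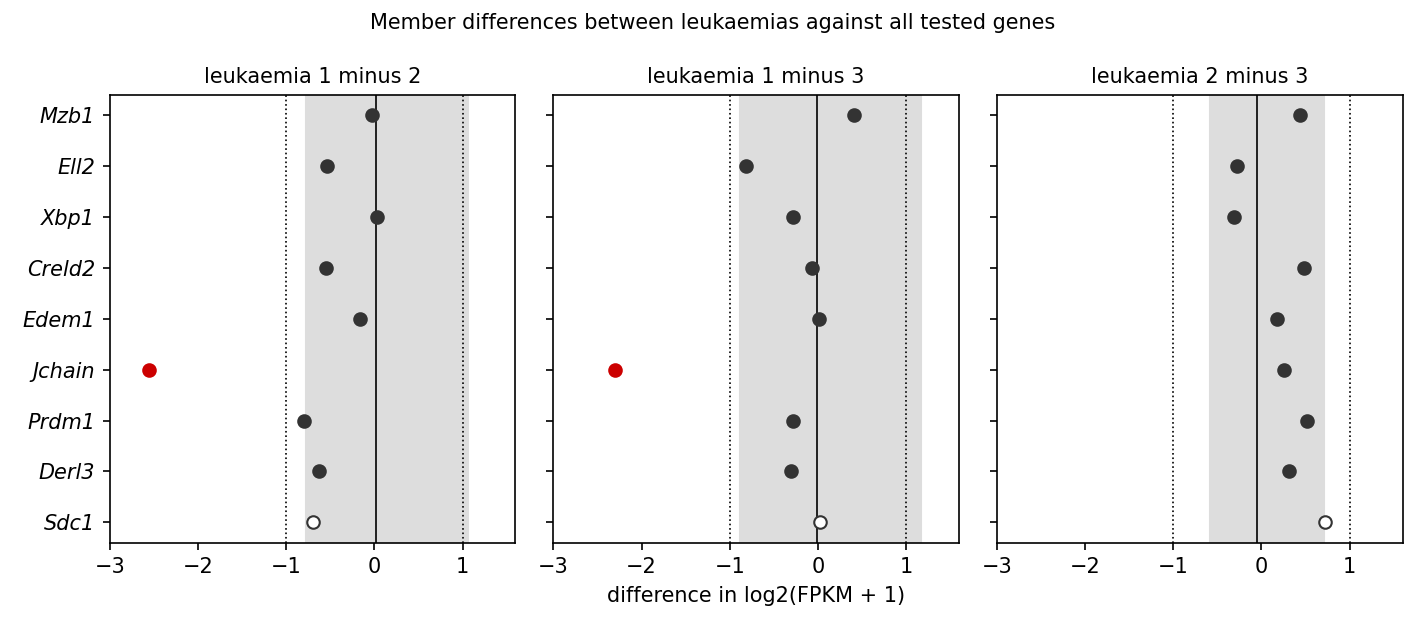
Each panel plots the difference of every member in log2(FPKM + 1) for a pair of leukaemias. The grey band holds the middle of all tested genes (percentiles 5 to 95), the solid line their median and the dotted lines the calling threshold, red points are called and the open point is Sdc1, which did not pass the level filter. Jchain lies far outside the band in both comparisons with leukaemia 1, and Prdm1 for 1 minus 2 and Sdc1 for 2 minus 3 lie just outside it.

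Mzb1 and Jchain act on the antibody molecule itself. Mzb1 encodes an ER protein that helps the chaperone GRP94 (Hsp90b1) and takes part in the assembly of immunoglobulin M. Its FPKM was 656, 669 and 492 in leukaemias 1, 2 and 3, ranks 82, 76 and 104 among all genes of the libraries. Leukaemia 3 was the lowest, and leukaemias 1 and 2 had overlapping intervals. Each value lay above its own interval, which ran from 512 to 528, from 515 to 532 and from 384 to 397. With the interval midpoints in place of FPKM, the mean over the leukaemias was 478. Mzb1 exceeded Hsp90b1 by 4.77, 3.59 and 3.30 times in FPKM, and by 4.04, 3.01 and 2.79 times when midpoints were read. The gene lies on chromosome 18, 35647265 to 35649367, in mm10 coordinates. An exon of it overlaps 1 of Spata24 on the same strand in GENCODE M21, and Spata24 itself was listed at 13.1 to 16.6 FPKM.

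Jchain encodes the joining chain that links units of immunoglobulin M and A and is a classical gene of antibody-secreting cells. It was listed at 0.262, 6.43 and 5.22 FPKM in leukaemias 1, 2 and 3. Leukaemia 1 was thus far below the others, and its interval of 0.169 to 0.353 did not approach those of leukaemia 2 (5.47 to 6.64) or leukaemia 3 (4.45 to 5.45). The FPKM of leukaemia 2 was 24.6 times, and that of leukaemia 3 20.0 times, the level in leukaemia 1. On the log2(FPKM + 1) scale, which compresses low values, the differences were -2.56 for leukaemia 1 minus 2 and -2.30 for 1 minus 3. Leukaemias 2 and 3 differed by 0.26. Without leukaemia 1 the mean level was 5.83 FPKM, against 3.97 over all 3. T and NK cell markers were higher in leukaemia 1, as given above. The summed pan-B markers were also highest there, with 5 of 8 above leukaemia 2 and 8 of 8 above leukaemia 3. The part of these cells in the Jchain difference was not tested. The 5 plasma cell markers, of which Jchain, Prdm1 and Sdc1 are members, summed to 3.35, 13.8 and 9.74 FPKM, with Jchain's own values included. Of the 5, 4 were lower in leukaemia 1 than in leukaemia 2, and 3 were lower in leukaemia 1 than in leukaemia 3. The exception against leukaemia 2 was Tnfrsf17, which encodes the plasma cell receptor BCMA, listed at 0.0521 FPKM in leukaemia 1 and at 0 in the others. Jchain lies on chromosome 5, 88519809 to 88527897, with no other annotated exon over its own.

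Of 9702 other named genes, Plekho1, Tfpi and Zeb2os had the pattern most like that of Jchain over the 3 libraries. Likeness was the Euclidean distance between values of log2(FPKM + 1) centred on each gene's mean, 0.06, 0.14 and 0.25 for these genes, and 13 genes lay within 0.5. Plekho1 was listed at 15.1, 89.2 and 78.5 FPKM in leukaemias 1, 2 and 3, and Tfpi, which encodes an inhibitor of tissue factor, at 0.168, 5.17 and 4.09. Zeb2os, an antisense transcript at the Zeb2 locus, was listed at 0, 6.19 and 5.13. Its likeness rests on an exact 0 in leukaemia 1, which had status OK but can be a failed estimate. With 3 libraries such likeness only describes these samples.

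Prdm1, Xbp1 and Ell2 encode the regulators among the members. Prdm1 stood at 2.48, 5.04 and 3.23 FPKM in leukaemias 1, 2 and 3. Its level in leukaemia 2 was 2.04 times that in leukaemia 1 and 1.56 times that in leukaemia 3, and no intervals overlapped. On the log2(FPKM + 1) scale the differences were 0.80 for leukaemia 2 minus 1 and 0.52 for 2 minus 3, short of the threshold of 1. With a pseudocount of 0.01 in place of 1 the difference for leukaemia 1 minus 2 became -1.02, and Prdm1 was then called. Macrophages, T cells and NK cells can also express Prdm1. The markers of all of these were highest in leukaemia 1, where Prdm1 was lowest, with 7 macrophage markers at a summed 179, 124 and 88.8 FPKM, and the part of these cells in the Prdm1 level was not tested. Prdm1 lies on chromosome 10, 44437174 to 44458748.

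Xbp1 was among the most even members, at 24.0, 23.5 and 29.5 FPKM. Leukaemia 3 was the highest, and leukaemias 1 and 2 had overlapping intervals. The SD of its log2(FPKM + 1) was 0.17, beside a median of 0.20 over the 9300 genes with FPKM of at least 1 in all leukaemias. The messenger of Xbp1 becomes active only after the ER sensor IRE1 (Ern1) has removed a short intron from it, and gene-level FPKM does not separate the spliced from the unspliced form. Ern1 itself stood at 1.58, 2.98 and 2.54 FPKM. Xbp1 lies on chromosome 11, 5520641 to 5525993.

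Ell2 encodes an elongation factor that in plasma cells favours the secreted over the membrane form of the immunoglobulin heavy chain messenger. It stood at 19.1, 28.2 and 34.3 FPKM, lowest in leukaemia 1 and highest in leukaemia 3, with intervals apart in every pair. The differences were 0.54 for leukaemia 2 minus 1 and 0.81 for 3 minus 1 on the log2(FPKM + 1) scale, and none was called. In leukaemias 2 and 3 its FPKM lay above its own upper bounds of 28.1 and 33.8. Ell2 was the highest of its family in FPKM. It exceeded Ell by 1.87, 3.56 and 3.59 times, and Ell3 was lower still at 4.49, 2.70 and 0.666 FPKM. Ell3 was called higher in leukaemia 1 than in leukaemia 3, by 1.72, and higher in leukaemia 2 than in leukaemia 3, by 1.15. Ell2 lies on chromosome 13, 75707484 to 75772358, and a small nucleolar RNA gene, Gm23127, overlaps its exons in GENCODE M21.

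Of 11 genes of the super elongation complex and its partners, in which ELL proteins work, 1 was called higher and 1 lower in leukaemia 1 against each of the others. Over all tested genes these shares were 5.56% and 2.60% against leukaemia 2, and 6.75% and 3.22% against leukaemia 3. Cdk9, the kinase of the complex, stood at 35.1 ± 1.42 FPKM and Mllt1, another subunit, at 17.4 ± 1.23. Eaf2, which encodes a partner of ELL proteins, was the gene called higher, at 14.9, 4.53 and 3.62 FPKM, with a difference of 1.52 for leukaemia 1 minus 2 and 1.78 for 1 minus 3. Aff1 was the gene called lower, but its row in leukaemia 1 had the status FAIL and was listed at 0, beside 15.6 and 11.8 in the others, so no level can be read there.

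Sdc1 encodes syndecan-1 (CD138), the surface proteoglycan by which plasma cells are usually recognised and which epithelia also carry. It was listed at 0.0957, 0.770 and 0.0748 FPKM in leukaemias 1, 2 and 3. Leukaemia 2 was 8.05 times the level of leukaemia 1 and 10.3 times that of leukaemia 3, with an interval of 0.621 to 0.915 apart from both, although all 3 levels were under 1. Without leukaemia 2 the mean was 0.0853 FPKM, against 0.314 over all 3. The 7 thymic epithelium markers summed to 4.55, 4.34 and 5.84 FPKM. Of these, 2, Ccl25 and Prss16, were at FPKM of at least 1 in every library, whereas Foxn1 and Psmb11 were at or under 0.02. Among the neutrophil markers 5 of 7 were highest in leukaemia 2, and the part of neutrophils or epithelium in the Sdc1 level was not tested. Sdc1 lies on chromosome 12, 8771396 to 8793687.

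The other syndecans had other levels. Sdc4 was the highest at 241, 290 and 190 FPKM, which was 376 to 2535 times the level of Sdc1. Sdc3 stood at 5.96, 3.14 and 2.21 FPKM and was called higher in leukaemia 1 than in leukaemia 3, by 1.11. Sdc2 was under 0.1 FPKM in each leukaemia.

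**Figure D3:**
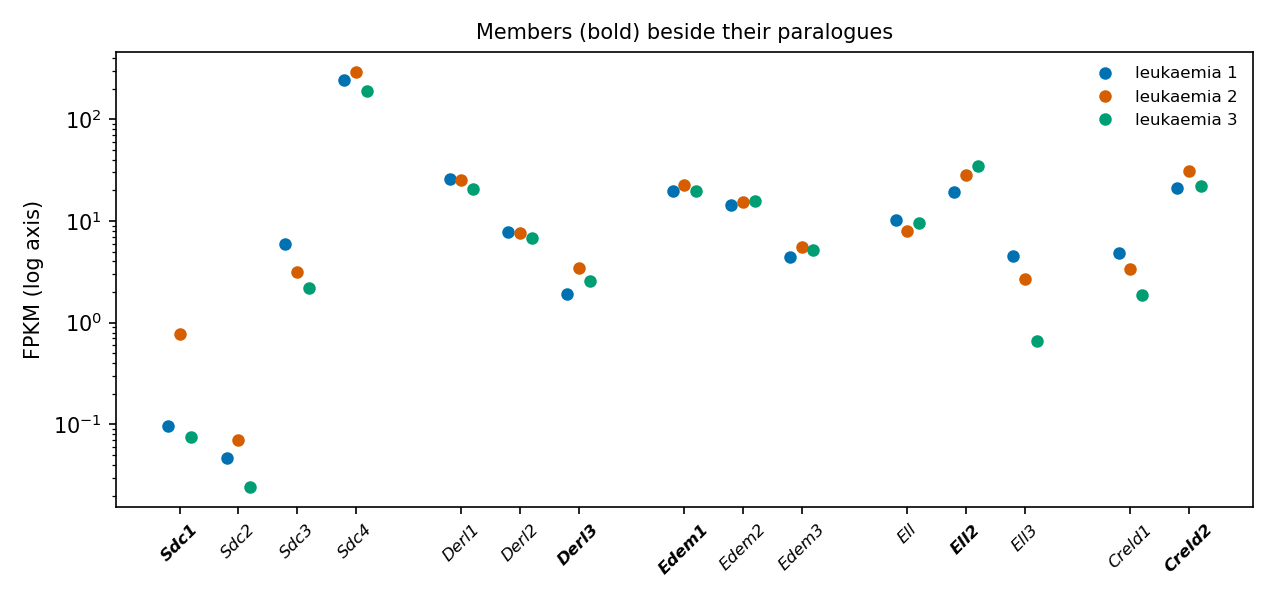
FPKM of the members that belong to gene families (bold names) and of their paralogues in each leukaemia, on a log axis. Ell2, Edem1 and Creld2 are the highest of their families, whereas Sdc1 and Derl3 lie below Sdc4 and below Derl1 and Derl2.

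Edem1, Derl3 and Creld2 act in quality control in the ER. Edem1 takes part in the selection of misfolded glycoproteins for degradation, by trimming their mannose. It was the most even member, at 19.9, 22.4 and 19.7 FPKM, with an SD of 0.10 on the log2(FPKM + 1) scale, and leukaemia 2 was slightly above the others. It was 1.24 to 1.46 times as high as Edem2 and 3.80 to 4.47 times as high as Edem3. Edem1 lies on chromosome 6, 108828641 to 108859356.

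Derl3 encodes a derlin, a membrane protein of the machinery that returns misfolded proteins to the cytosol. It stood at 1.90, 3.46 and 2.58 FPKM, lowest in leukaemia 1 and highest in leukaemia 2, with intervals apart for that pair only. The difference for leukaemia 2 minus 1 was 0.62. The other derlins were higher, and even, with Derl1 at 25.9, 25.5 and 20.9 and Derl2 at 7.74, 7.59 and 6.82 FPKM, so that Derl1 exceeded Derl3 by 7.36 to 13.7 times. Derl3 lies on chromosome 10, 75893398 to 75895941.

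Creld2 encodes an ER protein with disulphide isomerase activity that is released under ER stress. It stood at 21.0, 31.1 and 22.0 FPKM, highest in leukaemia 2, with intervals apart from both others, while those of leukaemias 1 and 3 overlapped. The difference was 0.55 for leukaemia 2 minus 1 and 0.48 for 2 minus 3. All 3 values lay above their own upper bounds of 19.8, 28.5 and 20.5. Its paralogue Creld1 was lower, at 4.85, 3.40 and 1.86 FPKM, and was called higher in leukaemia 1 than in leukaemia 3, by 1.03. Creld2 lies on chromosome 15, 88819646 to 88826681.

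The promoters of Derl3 and Creld2 are shown because they share a sequence not found in the other member windows and because both genes were highest in leukaemia 2. That level was not particular to them, as Jchain, Prdm1, Sdc1 and Edem1, whose windows lack the sequence, were also highest in leukaemia 2. RefSeq windows of GRCm38.p6, the assembly that mm10 names, run from 250 bases before to 50 bases after each start and were at hand for 8 of the 9 members, with Mzb1 not among them. They were searched on both strands for the ER stress response element, CCAAT and CCACG with 9 bases between them, to which NF-Y and the stress factor ATF6 are known to bind. It was found in 2 of 8 member windows, and in 0.119% of 32851 windows in all. Derl3 and Creld2 carry it on the strand opposite to the gene, starting 156 and 126 bases before the start. The windows lie at chr10:75893148-75893447 and chr15:88819396-88819695, both on the plus strand, and capitals mark the element, which on the gene's own strand reads as its reverse complement.
Derl3: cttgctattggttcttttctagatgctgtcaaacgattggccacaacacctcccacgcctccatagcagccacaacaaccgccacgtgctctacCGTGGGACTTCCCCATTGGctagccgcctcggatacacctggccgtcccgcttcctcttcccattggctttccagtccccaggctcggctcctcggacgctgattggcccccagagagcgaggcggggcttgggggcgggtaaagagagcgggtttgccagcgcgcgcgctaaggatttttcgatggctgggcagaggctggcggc
Creld2: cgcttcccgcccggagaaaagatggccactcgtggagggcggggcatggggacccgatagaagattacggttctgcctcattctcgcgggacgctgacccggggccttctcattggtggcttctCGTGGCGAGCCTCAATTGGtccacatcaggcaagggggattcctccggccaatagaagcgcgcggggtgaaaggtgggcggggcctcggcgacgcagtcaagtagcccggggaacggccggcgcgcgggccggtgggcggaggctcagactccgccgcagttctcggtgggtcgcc

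The element itself is given here for both members and for the chaperone genes of the list below that carry it, each read on its own strand, with CCAAT and CCACG in capitals and the 9 bases between in lower case. Outside the capitals the copies differ from each other.
Derl3 element: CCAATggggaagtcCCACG
Creld2 element: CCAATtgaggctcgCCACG
Hspa5 element: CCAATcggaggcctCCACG
Hsp90b1 element, farther from the start: CCAATcgcaaggagCCACG
Hsp90b1 element, nearer to the start: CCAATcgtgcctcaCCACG
Pdia6 element: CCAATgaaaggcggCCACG
Dnajc3 element: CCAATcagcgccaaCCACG
Canx element: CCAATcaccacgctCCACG
Calr element: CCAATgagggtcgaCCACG
The copy at Creld2, on chromosome 15, 88819520 to 88819538, also lies in the window of Alg12, a mannosyltransferase gene read in the other direction, which was listed at 5.64, 5.70 and 4.62 FPKM and was thus even between leukaemias 1 and 2. No member window held TGACGTGG, a site to which the XBP1 protein binds and which 0.676% of windows hold, or GAGGAAGT, a PU.1 sequence held by 3.20%. These counts say only which letters stand in the windows.

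The element was carried by 30 genes of the tables, of which 13 reached FPKM of at least 1 in any leukaemia. This set was assembled after the levels of Derl3 and Creld2 had been seen and received no test. Leukaemia 2 exceeded leukaemia 1 in 11 of the 13 and exceeded leukaemia 3 in 10, with median differences of 0.46 and 0.32 in log2(FPKM + 1). These counts include Derl3 and Creld2, shown partly for their level in leukaemia 2, and Alg12, which shares its copy with Creld2. They also include Calr4, which reached FPKM of at least 1 only in leukaemia 2, so the level filter fixed its direction in both counts. Over all tested genes the share with the higher level in leukaemia 2 was 48.2% against leukaemia 1 and 40.9% against leukaemia 3, the latter becoming 5292 of 10038 genes after rescaling to a common upper quartile. Calr4, a calreticulin-like gene, stood at 0.152, 1.58 and 0.0995 FPKM. Hspa5, which encodes the chief ER chaperone BiP, stood at 154, 211 and 142 FPKM. Syvn1, a ubiquitin ligase gene of ER-associated degradation, stood at 107, 101 and 87.0 FPKM and Pan2, a deadenylase gene, at 14.2, 11.4 and 13.5. These were the 2 genes not higher in leukaemia 2 than in leukaemia 1. Hnrnpa3, at 28.4, 44.0 and 54.7 FPKM, Canx and Pan2 were not higher in leukaemia 2 than in leukaemia 3.

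**Figure D4:**
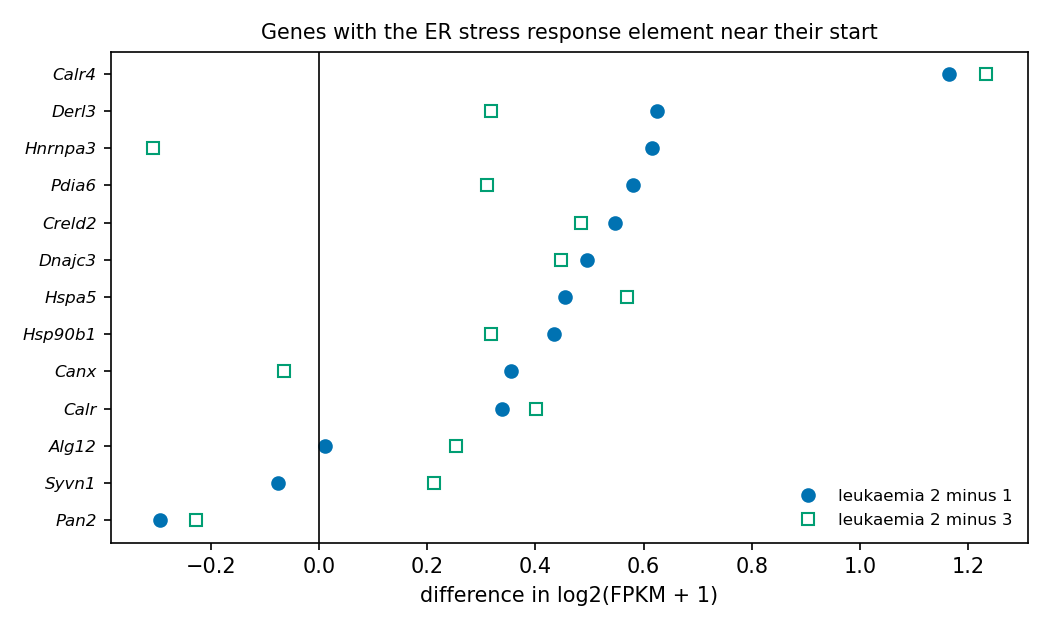
Differences in log2(FPKM + 1) of leukaemia 2 minus 1 (filled circles) and of leukaemia 2 minus 3 (open squares) for the 13 genes with the element and FPKM of at least 1 in any leukaemia. Derl3 and Creld2 lie to the right of 0 for both differences. Syvn1 and Pan2 are left of 0 for leukaemia 2 minus 1, and Hnrnpa3, Pan2 and Canx for 2 minus 3.

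The wider secretory pathway was then read from lists of genes beside the members. For every list, calls stand beside 1.72% to 6.75% of all tested genes called per pair and direction. With so few genes per list, 0 or 1 call is not read as a result about the list. Of 15 ER chaperones and folding enzymes, 13 were highest in leukaemia 2, as Derl3 and Creld2 were. Hspa5, Hsp90b1, Pdia6, Dnajc3, Canx and Calr are in this list and among the genes with the element, so these sets overlap. In 14 of the 15 leukaemia 2 exceeded leukaemia 1, and in 14 it exceeded leukaemia 3, with median differences of 0.43 and 0.40. The counts were 14 with interval midpoints and with either rescaling, except for 15 of 15 against leukaemia 3 after rescaling to a common upper quartile. In leukaemia 2 against 1, 1 of 15 was called, beside 2.60% of all tested genes called higher in leukaemia 2. The called gene was Sdf2l1, which encodes a partner of the BiP complex, at 43.3, 95.2 and 68.8 FPKM with a difference of 1.12. The most abundant were Ppib, a prolyl isomerase gene, at 236 ± 34.2 FPKM, and Calr, which encodes the lectin chaperone calreticulin, at 228 ± 35.4. The exception for leukaemia 2 against 1 was Dnajb9, which encodes a BiP cochaperone, at 19.0, 13.2 and 12.2 FPKM, and for 2 against 3 it was Canx, at 75.2, 96.5 and 101. Between leukaemias 1 and 3 the chaperones showed no common direction, with 6 of 15 higher in leukaemia 1, or 8 of 15 after rescaling to a common upper quartile.

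**Figure D5:**
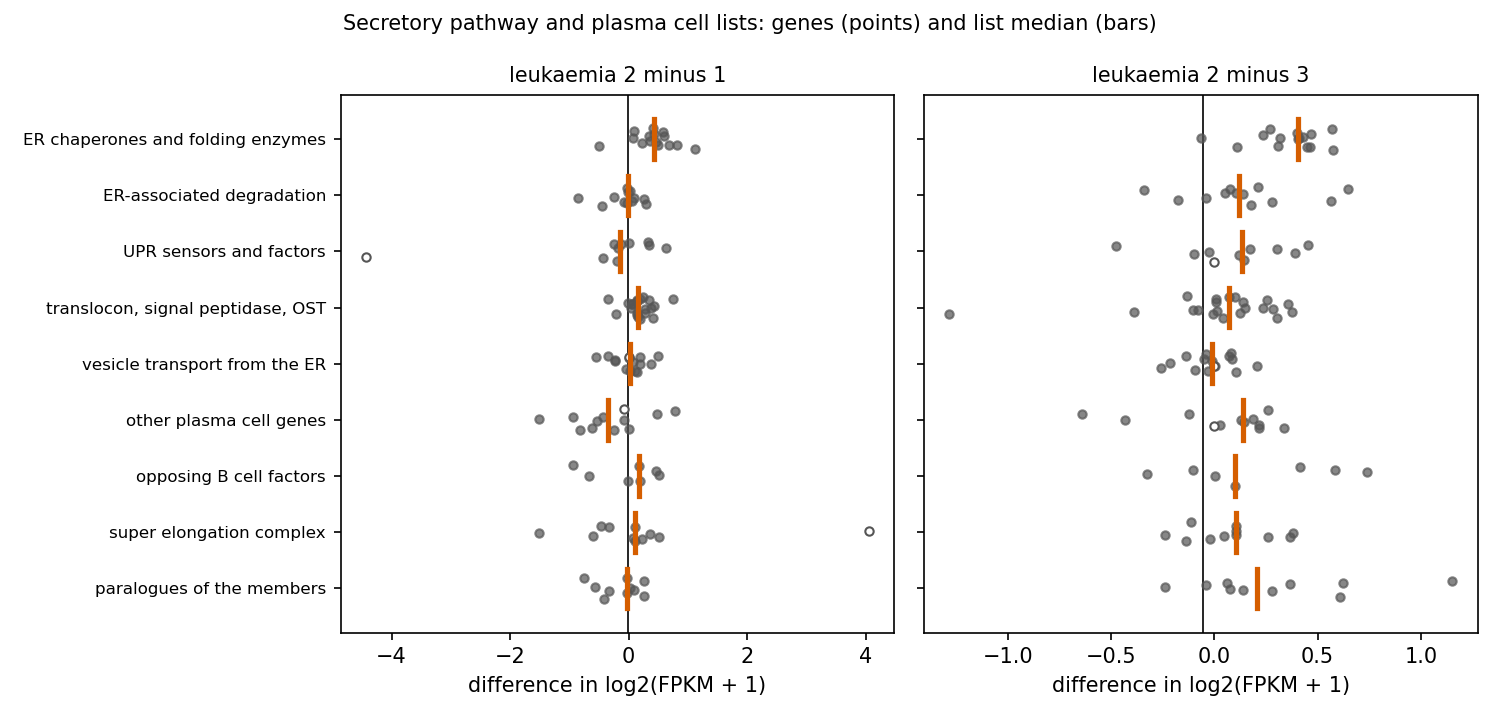
Differences in log2(FPKM + 1) of leukaemia 2 minus 1 and 2 minus 3 for the genes of 9 lists, with the list median as an orange bar and the median of all tested genes as a black line; open points are genes listed at 0 in a leukaemia of the pair. The chaperone median lies at 0.43 and 0.40, whereas the other medians lie nearer to the line.

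Of 12 genes of ER-associated degradation, none was called in any pair. Their median difference was 0.01 for leukaemia 1 minus 2, 0.23 for 1 minus 3, with 9 of 12 higher in leukaemia 1, and 0.12 for 2 minus 3. Herpud1, a stress-induced gene of this machinery, was highest in leukaemia 1, at 160, 87.7 and 112 FPKM, and Syvn1 stood at 98.2 ± 10.1. Of 21 genes of the translocon, signal peptidase and oligosaccharyltransferase, which bring new chains into the ER and modify them, 18 were higher in leukaemia 2 than in leukaemia 1, by a median of 0.16, and none was called. For leukaemia 1 minus 3 their median was -0.17, and for 2 minus 3 it was 0.07. Sec61b, a subunit of the translocation channel, stood at 162 ± 19.9 FPKM and Dad1, an oligosaccharyltransferase subunit, at 146 ± 21.3. Sec11c, a catalytic subunit of the signal peptidase, was the gene of this list called in the other pairs, at 31.9, 37.7 and 93.4 FPKM, higher in leukaemia 3 by 1.52 than in leukaemia 1 and by 1.28 than in leukaemia 2. Xbp1 and Ell2 were likewise highest in leukaemia 3. None of 15 genes of vesicle transport from the ER was called in any pair. Sec13, a coat subunit of these vesicles, stood at 85.2 ± 14.3 FPKM and Copb2, of the return coat, at 58.5 ± 3.17.

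Among 10 sensors and factors of the unfolded protein response, 1 was called higher in leukaemia 1 than in each of the others. For all tested genes these shares were 5.56% against leukaemia 2 and 6.75% against leukaemia 3. The called gene was Ddit3, which encodes the stress factor CHOP, at 20.6 FPKM in leukaemia 1 and listed at 0, with status OK, in leukaemias 2 and 3. An exact 0 in such tables can be a failed estimate, so no fold is given and absence is not read from it. Atf4, which encodes a translation-controlled stress factor, was the most abundant at 141 ± 24.3 FPKM, ahead of Mbtps1, the gene of a protease that activates ATF6, at 30.5 ± 5.19.

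Other plasma cell genes did not form a single level. Of 12 such genes, 6 had FPKM of at least 1 in all leukaemias. Pou2af1, a B cell coactivator gene, stood at 455 ± 79.6 FPKM, Slamf7, a surface receptor gene, at 155 ± 40.0 and Irf4, whose factor drives plasma cell differentiation at high dose, at 140, 90.2 and 122. At the other end Fkbp11, an ER isomerase gene of plasma cells, did not exceed 0.187 FPKM, and Bhlha15, which encodes the secretory cell factor MIST1, stood at 0.464, 1.52 and 1.21. Called genes were Eaf2, given above, and Cd38, which was higher in leukaemia 1 than in leukaemia 3 by 1.03, at 2.72, 1.11 and 0.822 FPKM. Against leukaemia 2, where 9 of the 12 were higher in leukaemia 1, the list median was 0.34 for 1 minus 2, in the direction opposite to the members' median.

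Of 7 genes whose products hold B cells in their identity or oppose the plasma cell programme, none was called in any pair, and 4 were highest in leukaemia 2, as Prdm1 was. Id3, an inhibitor of E proteins, stood at 92.2, 132.3 and 132.0 FPKM and Pax5, the factor of B cell commitment, at 104.9, 120.6 and 80.0, both above Prdm1. Ebf1, an early B cell factor gene, stood at 97.9, 110.2 and 82.4. Ciita, which encodes the activator of MHC class II genes, stood at 0.684, 1.32 and 0.391 FPKM, and Mitf had a mean of 0.103, both below Prdm1. Bcl6, a repressor that represses Prdm1 and is repressed by its product, was at 16.1, 7.89 and 10.1 FPKM, highest in leukaemia 1 and lowest in leukaemia 2. Bach2, a further repressor of Prdm1, was also highest in leukaemia 1, at 53.9, 33.7 and 36.3. These orders rest on 3 libraries and were not tested.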

How the data were processed

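Per the labels' protocols, RNA came from homogenised thymuses after lysis of red cells. Build mm10 and the tools TopHat2 2.0.9, Trim Galore 0.2.8.1, Cuffdiff 2.1.1 and Cufflinks are named per the submitters' processing notes, while order and settings are not given in these sources. The authors deposited FPKM per gene with 95% bounds and a status, per the file headers, 1 table per leukaemia. These values hold no counts, so no count test was used.

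Of 25020 rows per table, 26 whose symbol had become a date were left out, and FPKM and bounds were summed over the loci of 286 symbols. Rows of any status were kept. Starts are the tables' own with 1 added. Differences are in log2(FPKM + 1), with a pseudocount of 1, which understates changes of low genes. Calls ran over all genes of each pair. The calling rule was also run on simulated data with counting error only and with intervals centred on FPKM. Many deposited intervals are not centred so, and that run therefore cannot check the calls made with them. Other pseudocounts, filters and thresholds, interval midpoints, 2 rescalings, rows of status OK and leaving out each library were the alternatives. The rule for named genes took all members, the 2 most abundant genes of each list, genes of a list called in any pair, and the 3 genes most like each called member. Further genes (Hspa5, Hsp90b1, Alg12, Calr4, Pan2, Hnrnpa3, Dnajb9, Canx, Irf4, Fkbp11, Bhlha15, Tnfrsf17, Bcl6, Bach2, Ebf1, Ciita, Mitf, Ern1, Spata24, Ccl25, Prss16, Foxn1, Psmb11, paralogues) were named after their values were seen. The members and lists were chosen with earlier results of these data known. The older symbol Fam46c was read as Tent5c. Python 3.11.15, numpy 2.4.6 and pandas 2.3.3 were used.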

Additional observations from a re-analysis of the deposited data

How the results depend on the processing

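Jchain kept its direction and its call against leukaemias 2 and 3 under every alternative tried, with differences from -4.57 to -2.48 for leukaemia 1 minus 2 and from -4.27 to -2.24 for 1 minus 3. The members called for leukaemia 1 against 2 went from 1 to 2 with a pseudocount of 0.01, by Prdm1, and to 2 with a pseudocount of 0.1 and no filter on low values, by Sdc1; the latter setting was chosen after seeing the data and also gave 1 member, Sdc1, for leukaemia 2 against 3. The count over all genes, 840, 1024 and 470 for 1 against 2, 1 against 3 and 2 against 3, became 1345, 1558 and 735 with a pseudocount of 0.01, 169, 180 and 118 with a threshold of 2, and 1909, 2191 and 1161 with a pseudocount of 0.1 and no filter. It was 1291 for 1 against 2 with a pseudocount of 0.1 alone, and 287 for 2 against 3 with FPKM of at least 5. Of 162 values of member differences under alternatives, 154 moved by less than the SD of the gene over the libraries and 8, all of Jchain or Sdc1 under smaller pseudocounts, by more. Rows of status OK left every member difference as it was. Of 54 values of member means, the mean of Mzb1 with midpoints (478 FPKM) was the 1 that moved by more. Dropping 1 of 3 values cannot shift their mean by as much as their SD, so means without a library could not have moved. The 2 rescalings used factors of 0.966 to 1.02 and left little room to move. These counts are therefore weak evidence of stability. No paired analysis was possible because the libraries form 1 group. Depth is unknown, and differences under the interval width cannot be detected.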
